A study of Homo sapiens with 4 samples.

Results

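The genes described here carry the symbols of families known for splicing regulators and of kinases that control SR proteins. Some are known for roles other than splicing regulation, given below for *RBM19*, *RBM7*, *RBM15* and *RBM15B*, and *HNRNPA1P10* is a pseudogene. All members were taken from the TT-seq table by symbol: the SRSF genes, the HNRNP genes, the RBM genes with a number, CLK1 to CLK4, and a short list of SR-related proteins, SR protein kinases and polypyrimidine tract binding proteins. The rule found 67 of the 10147 listed genes, of which 10 were SR genes, 6 SR-related genes, 18 hnRNP genes (with *PTBP3*), 27 RBM genes and 6 kinase genes. All 67 had reads and entered the tests. *SRSF2*, *SRSF12*, *SON* and *PTBP1* were not analysed here.

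SR proteins carry RNA recognition motifs and a tail rich in arginine and serine, bind exonic enhancers, and as a rule favour inclusion of the exon they bind. hnRNP proteins coat nascent transcripts and often act against exon inclusion. RBM proteins are a family by name more than by function, with members in the spliceosome, in the m6A writer complex and in RNA decay. SRPK kinases phosphorylate SR proteins in the cytoplasm, which promotes their import, and CLK kinases phosphorylate them further in the nucleus. Several of these genes control their own output through poison exons or retained introns.

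K562, an erythroleukemia line, had been edited so that the endogenous *IWS1* gene, which encodes a factor of RNA polymerase II elongation, carried an N-terminal dTAG. All samples share this edit. The 2 control samples received DMSO and the 2 dIWS1 samples received 500 nM dTAG7, a ligand that directs the tagged protein to degradation. Both groups were treated for 1 h and labelled with 500 µM 4-thiouridine (4sU) for 5 min. TT-seq sequences the RNA made during the pulse. The counts per gene used here take exons and introns together and do not tell spliced from unspliced products. The authors took intron retention ratios from the TT-seq reads themselves, which these counts do not hold.

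The deposited table holds means and not library columns, and whole reads per column were recovered from the means. These gave 1 control column with 29830672 reads in genes and 2 dIWS1 columns with 20682313 and 20885911 reads. The control counts in each mean like 2 identical columns and was taken as 1 sample here, so replicate spread comes from dIWS1 alone and the control was assumed to vary to the same extent. Nothing in the columns ties the dIWS1 columns to a replicate number, and they are called column 1 and column 2. All 12 marker genes of K562 were in the table, and of 6 markers of other blood cells 1 was listed (*PTPRC*). *IWS1* itself had 3684 reads in the control and 2334 and 2427 in the dIWS1 columns, and since dTAG7 removes the protein, these reads do not measure the depletion. Normalized read counts are reads divided by the spike-in size factors, and a log2 change is dIWS1 over control.

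The 4 members that differed from the median gene of the table by the test given further on were *CLK1*, *HNRNPH3* and *RBM7* above it and *RBM19* below it. The 250 bases in front of their RefSeq starts are shown for this reason, from GRCh38.p14, 5′ to 3′ on the strand of the gene. They lie at chr2:200864659-200864908 on the minus strand for *CLK1*, chr10:68331443-68331692 on the plus strand for *HNRNPH3*, chr11:114400416-114400665 on the plus strand for *RBM7* and chr12:113966326-113966575 on the minus strand for *RBM19*. Capitals mark, on either strand, the TATA box searched as TATAAA, the CCAAT box as its own letters, the GC box as GGGCGG, the core of ETS sites as CCGGAA and the E-box as CACGTG.
CLK1: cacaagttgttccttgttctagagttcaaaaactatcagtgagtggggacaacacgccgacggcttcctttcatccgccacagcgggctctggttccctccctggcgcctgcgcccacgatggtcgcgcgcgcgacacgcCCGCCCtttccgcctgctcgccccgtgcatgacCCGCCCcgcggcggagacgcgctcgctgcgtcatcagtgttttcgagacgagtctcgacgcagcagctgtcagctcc
HNRNPH3: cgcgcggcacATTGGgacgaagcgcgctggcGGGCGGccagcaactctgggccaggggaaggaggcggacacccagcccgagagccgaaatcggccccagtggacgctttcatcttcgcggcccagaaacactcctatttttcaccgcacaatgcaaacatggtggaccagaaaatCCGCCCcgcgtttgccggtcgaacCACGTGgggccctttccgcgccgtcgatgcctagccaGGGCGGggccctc
RBM7: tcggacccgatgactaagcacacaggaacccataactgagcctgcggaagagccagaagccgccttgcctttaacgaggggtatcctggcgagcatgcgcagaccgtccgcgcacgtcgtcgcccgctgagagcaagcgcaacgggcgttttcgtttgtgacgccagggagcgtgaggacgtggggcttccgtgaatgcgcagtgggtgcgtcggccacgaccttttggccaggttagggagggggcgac
RBM19: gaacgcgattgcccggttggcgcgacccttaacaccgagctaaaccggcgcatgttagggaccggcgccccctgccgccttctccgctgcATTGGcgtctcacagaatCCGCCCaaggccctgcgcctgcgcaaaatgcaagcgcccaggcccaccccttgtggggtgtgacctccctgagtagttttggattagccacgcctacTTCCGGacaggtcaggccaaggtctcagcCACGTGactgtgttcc
The *CLK1* window held the GC box letters GGGCGG alone, the *HNRNPH3* window held the CCAAT box, the E-box and the GC box, the *RBM19* window held these and the ETS core, and the *RBM7* window held none of the 5 motifs. A match is a run of letters and not a shown binding site.

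After 1 h of dIWS1, 37 of the 67 genes (55.2%) had fewer reads at an adjusted p under 0.05 (limma voom with Benjamini-Hochberg adjustment over all 10135 genes), and none had more. Over all genes tested, 64.7% of genes were called lower and 0.118% higher. In bulk samples, fewer cells that transcribe a gene and less RNA made per cell cannot be told apart. At an unadjusted p under 0.05 in limma voom, 40 members were lower and 0 higher, and limma with a trend on log2 values also called 0 higher. The share of all genes at these settings is not given here. The median log2 change of the members was −0.33 (quartiles −0.48 and −0.23), beside −0.43 over all genes (quartiles −0.60 and −0.26). Each dIWS1 column gave the same order. The member median was −0.41 in column 1 and −0.26 in column 2, beside −0.47 and −0.37 over all genes. Both columns were set against the same single control column, so they do not repeat the comparison independently. The control lay above both dIWS1 columns in 64 members, between them in 1 (*RBM7*) and below both in 2 (*CLK1* and *HNRNPH3*).

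**Figure D1:**
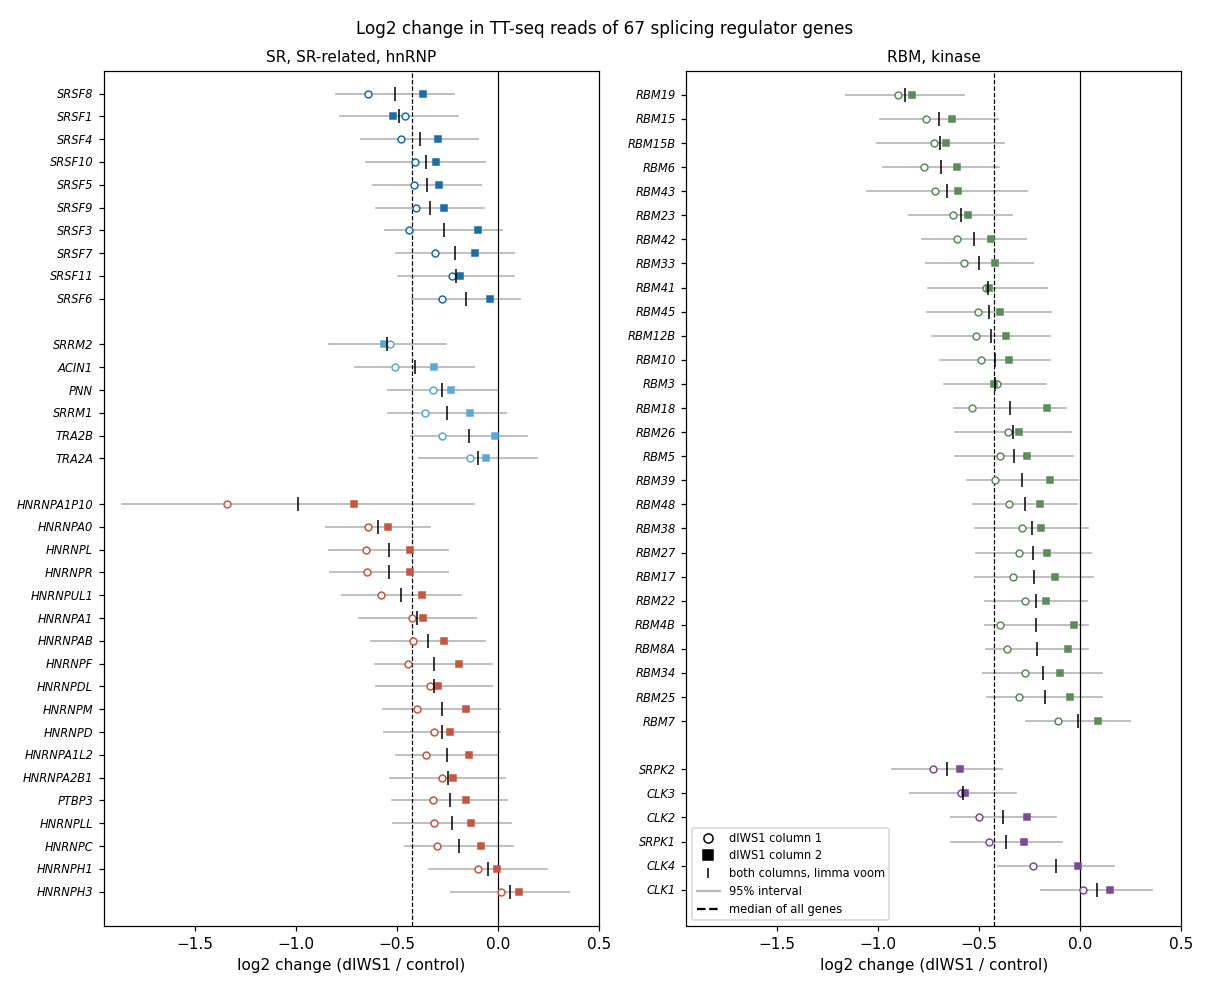
Log2 change (dIWS1 / control) of all 67 members, ordered within each group. Open circles are dIWS1 column 1, filled squares column 2, black ticks the limma voom value of both columns and grey bars its 95% interval, and the dashed line is the median of all genes at −0.43. Most symbols lie left of 0, and *HNRNPH3* and *CLK1* have both columns to the right of it.

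Since nearly all genes shifted down (96.4% below 0), each gene was also set against the median gene. Of the 67 members, 46 (68.7%) lay above the median gene and 21 below it. The test against the median gene kept the SE of the spike-in fit, which includes the offset between the 2 dIWS1 columns given below. At an adjusted p under 0.05 (limma voom) it called 3 members higher and 1 lower. Of all genes, 3.01% were called higher and 4.8% lower. These calls depended on the model: limma with a trend on log2 values gave 1 higher and 0 lower with a pseudocount of 0.5, and 0 of either with a pseudocount of 5. When the libraries were scaled by total reads in place of spike-ins, the median gene stood at 0.02. The split became 18 members higher (26.9%) and 4 lower (5.97%), beside 14.5% and 10.5% of all genes. The median of the members moved little, from 0.094 against the median gene to 0.111. The SE fell from 0.14 to 0.06 for *CLK1* and from 0.15 to 0.06 for *RBM19* under total reads, so these counts do not rest on the same spread. Under this scaling the SR, SR-related and hnRNP groups had 3, 2 and 6 members called higher and 0 lower, namely *SRSF6*, *SRSF7* and *SRSF11*, then *TRA2A* and *TRA2B*, then *HNRNPA2B1*, *PTBP3*, *HNRNPLL*, *HNRNPC*, *HNRNPH1* and *HNRNPH3*. The RBM genes had 5 higher and 3 lower and the kinase genes 2 higher and 1 lower. Depth moves with this comparison: the median member had 3687 control reads and the median gene 1081. Among the 4929 genes averaging 1000 normalized reads or more, the median change was −0.39 and 55.0% lay above the median gene, both nearer to the members than the values over all genes. The part of depth in the members' position was not tested.

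The groups overlapped widely. The median log2 change was −0.34 for SR genes (range −0.51 to −0.16), −0.26 for SR-related genes (−0.55 to −0.10), −0.30 for hnRNP genes (−0.99 to 0.06), −0.35 for RBM genes (−0.87 to −0.01) and −0.37 for kinase genes (−0.66 to 0.08). Genes called lower were 6 of 10 SR, 2 of 6 SR-related, 9 of 18 hnRNP, 16 of 27 RBM (59.3%) and 4 of 6 kinase genes (66.7%), beside 64.7% of all genes. All group medians lay above that of all genes. The SR-related genes had the highest median in both columns, at −0.34 and −0.18, and the kinase genes the lowest in column 1, at −0.48. In column 2 the lowest was the RBM median, at −0.30, so the order of the groups was not the same in both columns, and no test of a group difference was made. The 2 columns themselves stood apart, with column 1 over column 2 at a median log2 ratio of −0.15 in members and −0.12 over all genes.

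**Figure D2:**
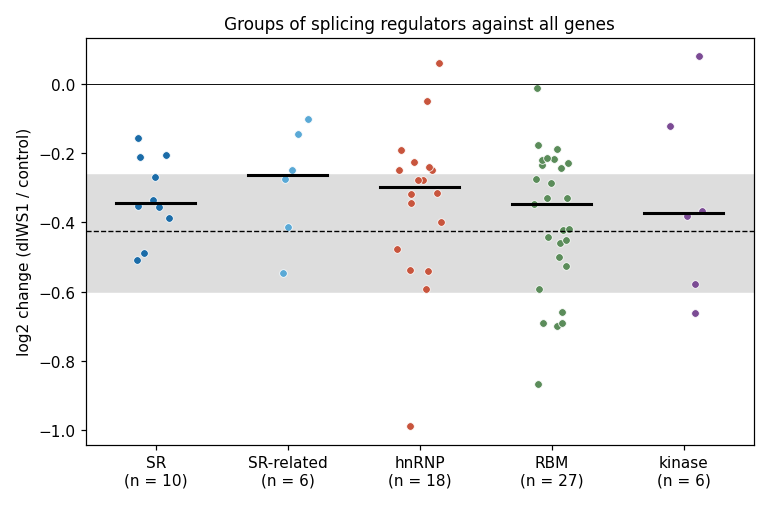
Log2 change (dIWS1 / control) of each member by group, with the group median as a black bar. The dashed line is the median of all genes and the grey band their quartiles (−0.60 to −0.26); each group has members above and below the dashed line, and each group median lies above it.

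The kinase genes spanned the widest contrast within a small group. *CLK1*, the best known of the CLK kinases, had 1584 reads in the control and 1574 and 1595 in the dIWS1 columns, or 1569, 1585 and 1735 after scaling. Both dIWS1 columns lay at or just above the control. Its log2 change was 0.08 ± 0.14 (SE, adjusted p = 0.604, limma voom with Benjamini-Hochberg), and set against the median gene it stood at 0.51 (adjusted p = 0.00946), above 98.2% of all genes. *CLK1* lies on chromosome 2, from 200853009 to 200864658.

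*CLK4*, its close paralog, had 2360 control reads and 1974 and 2135 dIWS1 reads, a change of −0.12 ± 0.15 (adjusted p = 0.449, limma voom). The difference between *CLK1* and *CLK4* was 0.20, at 0.25 in column 1 and 0.15 in column 2. Its 95% interval, from −0.20 to 0.60, adds the SEs of both genes as if independent. Both genes share the same libraries, so this interval does not measure the spread of their difference within columns, and that was not tested. *CLK3* and *CLK2* were called lower, at −0.58 ± 0.13 (adjusted p = 8.01e-05, limma voom) and −0.38 ± 0.13 (adjusted p = 0.00897). *CLK3* had 1168 reads in the control and 763 and 717 in the dIWS1 columns, *CLK2* 1100 and then 765 and 835.

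The SR protein kinases were among the most deeply read members. *SRPK2* had 26497 reads in the control and 15720 and 15995 in the dIWS1 columns, a change of −0.66 ± 0.14 (adjusted p = 1.52e-05, limma voom). *SRPK1* had 22479 and then 16157 and 16852 reads, a change of −0.37 ± 0.14 (adjusted p = 0.0163, limma voom). Both genes fell. The log2 difference of *SRPK1* and *SRPK2* was 0.29, at 0.28 in column 1 and 0.31 in column 2. The 95% interval, built in the same way as for *CLK1* and *CLK4*, ran from −0.09 to 0.68.

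The SR genes lay close together. *SRSF8*, an SR gene closely related to *SRSF2*, and *SRSF1*, the founding member of the family (also SF2/ASF), were lowest. *SRSF8* had 267 control reads and 168 and 188 dIWS1 reads, a change of −0.51 ± 0.15 (adjusted p = 0.00175, limma voom). *SRSF1* had 3880 control reads and 2774 and 2467 dIWS1 reads, a change of −0.49 ± 0.15 (adjusted p = 0.00276). *SRSF4* had 8747 control reads and 6183 and 6493 dIWS1 reads, a change of −0.39 ± 0.15 (adjusted p = 0.0165, limma voom). *SRSF10*, a repressor of splicing when dephosphorylated, at −0.36, *SRSF5* at −0.35 and *SRSF9* at −0.33 were also called lower.

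The other 4 SR genes did not pass. *SRSF3* and *SRSF7*, which also serve as adaptors of mRNA export, stood at −0.27 and −0.21. *SRSF7* had 2835 control reads and 2247 and 2387 dIWS1 reads (−0.21 ± 0.15, adjusted p = 0.188, limma voom). *SRSF11* had 10022 control reads and 8439 and 8013 dIWS1 reads (−0.21 ± 0.15, adjusted p = 0.195, limma voom), and *SRSF6* had 1320 and then 1072 and 1170 (−0.16 ± 0.14, adjusted p = 0.294). For *SRSF3* the columns differed most among SR genes, with a log2 ratio to the control of −0.44 in column 1 and −0.10 in column 2.

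Of the SR-related genes, *SRRM2*, a large scaffold of nuclear speckles, and *ACIN1*, a partner of the exon junction complex, were called lower. *SRRM2* had 8857 control reads and 6025 and 5460 dIWS1 reads, a change of −0.55 ± 0.15 (adjusted p = 0.000709, limma voom). *ACIN1* had 3919 and then 2713 and 2863 reads, a change of −0.41 ± 0.15 (adjusted p = 0.0117). *PNN*, another speckle protein, had 1393 and then 1098 and 1080 reads (−0.28 ± 0.14, adjusted p = 0.0662, limma voom). *SRRM1*, a splicing coactivator, had 6487 and then 4969 and 5370 reads (−0.25 ± 0.15, adjusted p = 0.124, limma voom). The Tra2 proteins, SR-like activators of exon inclusion, had the highest values of this group. *TRA2B* had 10167 control reads and 8272 and 9174 dIWS1 reads (−0.14 ± 0.15, adjusted p = 0.366, limma voom), and *TRA2A* had 6581 and then 5883 and 5746 (−0.10 ± 0.15, adjusted p = 0.54). They differed by 0.04, at 0.14 in column 1 and −0.05 in column 2. The 95% interval, with the SEs of both genes taken as independent, ran from −0.36 to 0.45.

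**Figure D3:**
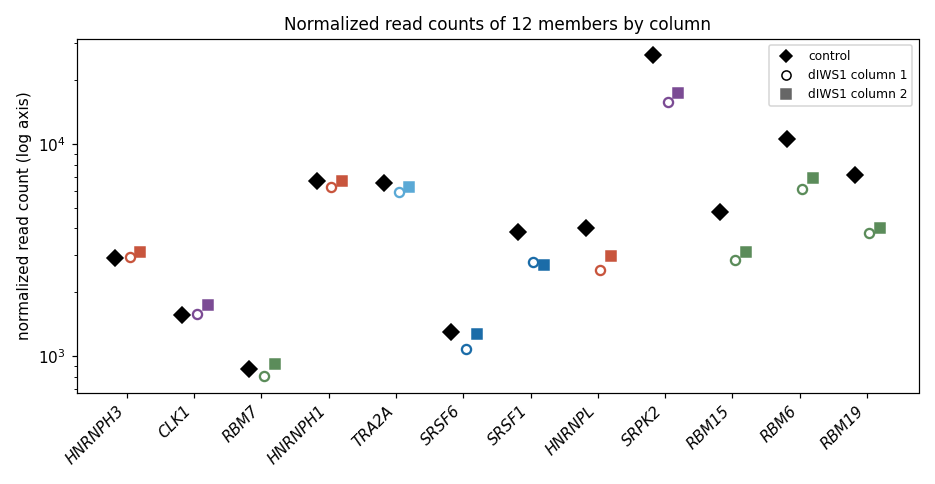
Normalized read counts (log axis) of 12 members in the control column (black diamonds), dIWS1 column 1 (open circles) and dIWS1 column 2 (filled squares). From *SRSF1* to *RBM19* both dIWS1 columns lie below the control, as in *RBM19* with 7151 against 3825 and 4012; for *HNRNPH3* and *CLK1* they lie at or above it.

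The hnRNP genes held the lowest and nearly the highest value of all members. *HNRNPA1P10*, a transcribed pseudogene of *HNRNPA1*, had 18 control reads and 7 and 10 dIWS1 reads, a change of −0.99 ± 0.44 (adjusted p = 0.0413, limma voom). Only uniquely aligned pairs were retained, so pairs that fit its parent equally well would be missing from its count. The same holds for the copy *HNRNPA1L2*, at −0.25. Without both copies 8 of 16 hnRNP genes were called lower and the median stayed at −0.30. *HNRNPA1* itself, one of the most abundant hnRNP proteins, had 7967 control reads and 5836 and 5607 dIWS1 reads and was called lower at −0.40.

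Among hnRNP genes with unique sequence, *HNRNPA0* was lowest, with 510 control reads and 321 and 319 dIWS1 reads (−0.59 ± 0.13, adjusted p = 3.81e-05, limma voom). *HNRNPL*, which binds CA repeats and regulates exons of *PTPRC*, had 4040 and then 2533 and 2726 reads (−0.54 ± 0.15, adjusted p = 0.000954). *HNRNPR* was also called lower at −0.54, *HNRNPUL1* at −0.48, *HNRNPAB* at −0.34, and *HNRNPF* and *HNRNPDL* at −0.32 each. Column 2 alone gave −0.19 for *HNRNPF*.

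Values of the hnRNP genes that did not pass lay between −0.28 (*HNRNPM*) and 0.06. *HNRNPC*, a core hnRNP protein that binds uridine tracts, had 32224 control reads and 25773 and 27746 dIWS1 reads, a change of −0.19 ± 0.14 (adjusted p = 0.197, limma voom). *PTBP3*, a paralog of the splicing repressor PTBP1, had 11543 and then 9097 and 9433 reads (−0.24 ± 0.15, adjusted p = 0.133, limma voom), and *HNRNPA2B1* stood at −0.25. The highest were 2 members of the hnRNP H/F family, which binds G-rich tracts. *HNRNPH1* had 6738 control reads and 6203 and 6122 dIWS1 reads (−0.05 ± 0.15, adjusted p = 0.763, limma voom). *HNRNPH3* had 2916 and then 2900 and 2858 reads (0.06 ± 0.15, adjusted p = 0.712), and after scaling 2888, 2920 and 3108. Relative to the median gene *HNRNPH3* was at 0.49 (adjusted p = 0.0209, limma voom) and *HNRNPH1* at 0.38 (adjusted p = 0.0979). The third member of that family in the table, *HNRNPF*, was at 0.11 relative to the median gene. *HNRNPH3* lies on chromosome 10, from 68331693 to 68343196.

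The RBM genes had the widest spread among well-read genes. *RBM19*, a nucleolar protein of ribosomal RNA processing, was the member with the lowest value among those with over 100 control reads. It had 7220 control reads and 3799 and 3689 dIWS1 reads, and both dIWS1 columns lay far below the control. Its log2 change was −0.87 ± 0.15 (adjusted p = 1.21e-07, limma voom), a level of 0.548 of the control, and set against the median gene it stood at −0.44 (adjusted p = 0.0409). *RBM19* lies on chromosome 12, from 113816740 to 113966325.

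*RBM15* and *RBM15B*, which bring the m6A writer complex to RNA, fell to a similar degree, at −0.70 ± 0.15 (adjusted p = 2.14e-05, limma voom) and −0.69 ± 0.16 (adjusted p = 8.44e-05). *RBM15* had 4846 control reads and 2810 and 2842 dIWS1 reads, while *RBM15B* had 223 and then 133 and 128. The splicing factors *RBM5*, *RBM6* and *RBM10*, which are related in sequence, were all called lower, at −0.33, −0.69 and −0.42. *RBM6* had 10614 control reads and 6112 and 6334 dIWS1 reads.

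The other RBM genes called lower were *RBM43* (−0.66), *RBM23* (−0.59), *RBM42* (−0.53), *RBM33* (−0.50), *RBM41* (−0.46), *RBM45* (−0.45), *RBM12B* (−0.44), the cold-inducible *RBM3* (−0.42), *RBM18* (−0.35) and *RBM26* (−0.33). *RBM18* depended on the column, at −0.54 in column 1 and −0.16 in column 2. *RBM33* was the most deeply read member, with 38657 control reads and 25501 and 26260 dIWS1 reads.

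The 11 RBM genes that did not pass included several with roles in the spliceosome itself. Splicing factors were also among the RBM genes called lower, such as *RBM5*, *RBM6* and *RBM10* above. *RBM22*, a component of the activated spliceosome, stood at −0.22, *RBM17* (SPF45) at −0.23, *RBM25*, which associates with U1 snRNP, at −0.18 and *RBM8A* (Y14 of the exon junction complex) at −0.21. *RBM39*, a coactivator and splicing factor related to U2AF2, had 20087 control reads and 14740 and 16498 dIWS1 reads (−0.29, adjusted p = 0.0622, limma voom). *RBM25* had 12315 control reads and 9830 and 10828 dIWS1 reads (−0.18 ± 0.14, adjusted p = 0.263, limma voom), and *RBM34* had 3687 and then 3003 and 3130 (−0.19 ± 0.15, adjusted p = 0.252, limma voom). *RBM7*, a subunit of the nuclear exosome targeting complex, was the highest, with 877 control reads and 798 and 850 dIWS1 reads. Its change was −0.01 ± 0.13 (adjusted p = 0.943, limma voom) and against the median gene it stood at 0.41 (adjusted p = 0.0261). *RBM7* lies on chromosome 11, from 114400666 to 114410607.

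Levels were compared between genes per kb of annotated span. In the control, the median was 251 normalized reads per kb for hnRNP genes, 227 for SR-related, 224 for SR, 99.1 for kinase and 85.7 for RBM genes, beside 41.2 over all genes. *HNRNPA1* led with 1240 normalized reads per kb in the control and 924 and 959 in the dIWS1 columns. *HNRNPA2B1* followed with 1148, 949 and 985, so these neighbours exchanged places between control and dIWS1. *RBM15* was next in the control with 657, and *SRSF3* had 612. *RBM45* and *RBM43* were at the other end with 8.24 and 8.32. The spans come from a current annotation and may differ from the gene models used for counting.

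**Figure D4:**
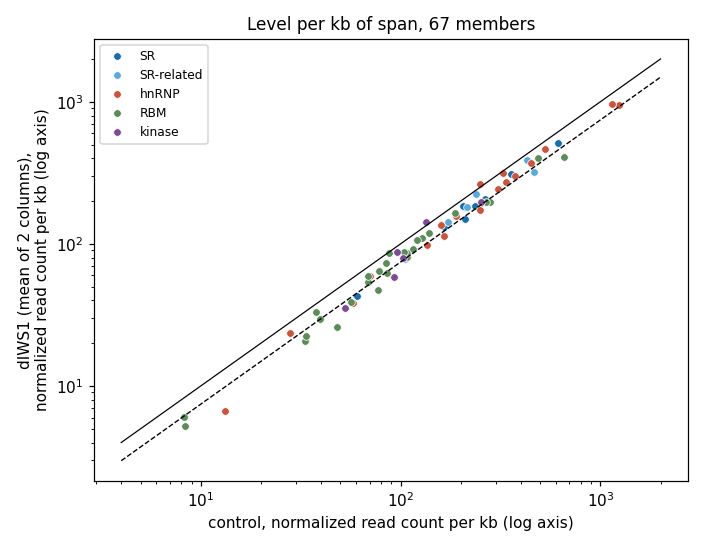
Normalized read count per kb of span in the control (x axis) and in dIWS1 (mean of 2 columns, y axis), both on log axes, for 67 members by group. The solid line marks equal levels and the dashed line the median change of all genes (−0.43 on the log2 scale); members from 8.24 to 1240 reads per kb lie on or between these lines or somewhat below the dashed one, with *CLK1* and *HNRNPH3* just above the solid line.

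The change showed little linear or rank relation to span in the members as a whole. Over 67 genes that share the same libraries, the coefficient of log10 span against log2 change was −0.01 (Pearson) and −0.00 (Spearman). It was 0.49 and 0.40 over the 18 hnRNP genes, which include the short pseudogene, and −0.17 and −0.11 over the 27 RBM genes, beside −0.09 and −0.10 over 8791 genes of the table. Of 10 members longer than 65 kb, 7 were called lower (70.0%, with 78.3% of all genes of that length) with a median of −0.41. Of 17 members up to 10 kb, 12 were called lower (70.6%, with 59.9% of all genes of that length) with a median of −0.35. From 10 to 26.5 kb, 10 of 23 were called lower (43.5%, with 64.2% of all genes of that length) with a median of −0.28. From 26.5 to 65 kb, 8 of 17 were called lower (47.1%, with 57.5% of all genes of that length) with a median of −0.29. The middle lengths thus lay above both ends, which these coefficients do not capture. All genes of the table had the same shape. Their medians were −0.49, −0.39, −0.34 and −0.49 from the shortest to the longest class. The long members included *SRPK2*, *RBM19* and *RBM6*, all called lower, and also *PTBP3*, *RBM27* and *RBM25*, which were not.

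**Figure D5:**
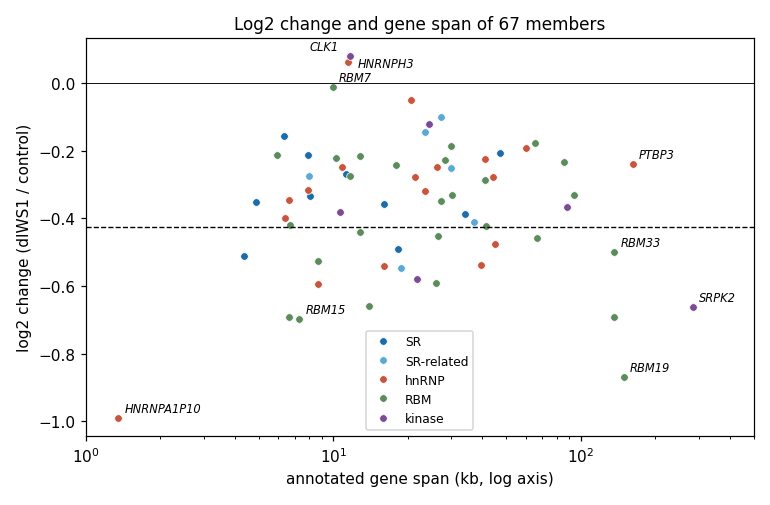
Log2 change (dIWS1 / control) against annotated gene span in kb (log axis) for 67 members by group, with the dashed line at the median of all genes. Long genes appear both low (*RBM19*, *SRPK2*) and high (*PTBP3*), and the 3 members highest on the y axis have spans near 10 kb.

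A RefSeq promoter was found for 60 of the 67 members. CCAAT, on either strand of the 250 bases before the start, was held by 28 of them (46.7%), beside 36.1% of 7921 genes of the table and 33.0% of 27305 promoters in all. CCAAT was in 14 of 23 RBM and 9 of 16 hnRNP promoters, but in 2 of 10 SR and 1 of 6 kinase promoters. TATAAA was held by 6 members (10.0%, with 5.15% of genes in the table and 11.1% of all promoters), GGGCGG by 38 (63.3%, with 68.9% and 42.3%), CCGGAA by 17 (28.3%, with 28.0% and 14.8%) and CACGTG by 9 (15.0%, with 9.32% and 6.49%). The median GC content was 63.2% in members and 65.2% in genes of the table.

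Other genes of the same biology were taken from lists, which were drawn up with earlier results of these data known. Of 23 listed SR-like and SR-associated genes 11 were called lower (47.8%, with 64.7% of all genes) and 0 higher, with a median of −0.32. *CDK12*, a kinase of the polymerase II tail with an RS-rich domain, was called lower at −0.61, and *CCNL1*, a cyclin L, stood at 0.19 (adjusted p = 0.236, limma voom). Against the median gene *CCNL1* was called higher, at 0.62 (adjusted p = 0.00159, limma voom), above the 0.51 of *CLK1*. That test called 1 of these 23 genes higher and 0 lower. Of 33 other RNA-binding splicing regulators 23 were called lower (69.7%, near the 64.7% of all genes) and 0 higher, with a median of −0.42, among them *MSI2* at −0.79 and *RBFOX2* at −0.69. *TIA1* and *TIAL1*, a pair of paralogs that bind uridine-rich RNA, both stood at −0.16 and did not pass. Of 7 further kinases, phosphatases and importers of SR proteins 6 were called lower (85.7%, with 64.7% of all genes), including *TNPO3*, the transportin that carries SR proteins into the nucleus, at −0.45. *PRPF4B* stood at −0.23 and did not pass.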

How the data were processed

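TT-seq was measured in K562 cells with dTAG on IWS1, in 2 control and 2 dIWS1 samples. The authors used STAR 2.6.0 to align reads to GRCh38 plus the spike-ins and retained uniquely aligned pairs. They counted these strand by strand over RefSeq genes that did not overlap others. The paper also filtered genes by their TT-seq expression, which gave the 10147 genes listed. Shares of all genes are thus taken over that filtered list. The authors then ran DESeq2 with size factors from spike-ins. The deposited table holds a signal per gene (the mean of 4 columns of scaled counts), the log2 fold change of the authors' comparison, its standard error, a statistic, p-values and adjusted p-values. None of these comparison values is printed here.

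Whole reads per column were recovered by writing each mean as a sum of 3 steps. All 5206 genes with a mean up to 1000 had 1 split from the mean alone, 17 members among them. For larger means (50 members) the deposited log2 fold change set where splits were searched, within 0.5% of the control reads it implies, so these values are not independent of it. It also gave the orientation of the columns, read as dIWS1 over control. In all, 10135 of 10136 genes with a mean above 0 had 1 split, and 1 of 600 shifted means could be split.

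The recovered reads were fitted with limma voom (limma 3.58.1, R 4.3.3), with library sizes from the spike-in size factors. The pseudocount was 0.5 and the control was entered once. The fit was also run on simulated data in which the control varied like dIWS1 and the columns had no common offset. That run could not check either point in these data. Adjusted p-values follow Benjamini-Hochberg over 10135 genes, with calls under 0.05. All tests are two-sided. The fit had 1 residual degree of freedom and took its spread from all genes. The median SE was 0.143 where the mean reached 100. The test against the median gene subtracted the median log2 change and kept the SE of the spike-in fit. That SE includes the common offset between the dIWS1 columns, which a comparison with the median gene would not carry. The p-values against the median gene therefore do not measure the spread of that comparison. P-values measure the spread between these columns, which may be technical. The 95% intervals use the SE, and those of paralog differences add the SEs of both genes as if independent.

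Full values were given for members called higher or called relative to the median gene, the 3 lowest and 3 highest of each group and paralog pairs. Other members named with reads were chosen after their values were seen. Members and lists were chosen with earlier results of these data known. Positions and promoters came from RefSeq (GRCh38.p14), with 67 members and 9942 genes matched. The protein features that were planned were not run. Python 3.11.15 was used with numpy 2.4.6, pandas 2.3.3 and matplotlib 3.10.9. Alternatives were other scalings, models, filters and thresholds.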

Additional observations from a re-analysis of the deposited data

How the results depend on the processing

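The scaling set the sign of the values. Against the median gene, the counts called lower were 1 of 67 members, 0 SR, 0 SR-related, 0 hnRNP, 1 RBM and 0 kinase genes, with 3 members higher. With total reads as library size, they were 4 members, 0 SR, 0 SR-related, 0 hnRNP, 3 RBM and 1 kinase genes, with 18 members higher. The median log2 changes turned positive, against the median gene and with total reads in turn: 0.082 and 0.098 for SR, 0.163 and 0.18 for SR-related, 0.129 and 0.145 for hnRNP, 0.078 and 0.093 for RBM, 0.052 and 0.068 for kinase genes, and 0.094 and 0.111 for all members. Both scalings remove the common fall by construction.

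With an adjusted p under 0.01, 23 members stayed lower, with 2 SR, 1 SR-related and 4 hnRNP genes. With a change of at least 0.5 on the log2 scale they were 16, with 1 SR, 1 SR-related, 4 hnRNP, 8 RBM and 2 kinase genes. Limma with a trend called 25 or 26 members lower, with 2 SR genes at either pseudocount (0.5 and 5). Calls against the median gene depended on the fit. Alternatives added after seeing the data gave 4 lower and 7 higher with the control entered 2 times, 0 lower and 1 higher with a trend and a pseudocount of 0.5, 0 and 0 with a pseudocount of 5, and 0 lower and 1 higher at an adjusted p under 0.01. The cause was not tested. Under a mean of at least 100 the count was 35 members lower. The share of all genes called at each of these settings is not given here, so these counts are not set against all genes.

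Leaving out 1 dIWS1 column left 1 sample against 1, with no test. The medians then ranged from −0.41 to −0.28 for SR, −0.34 to −0.18 for SR-related, −0.38 to −0.23 for hnRNP, −0.42 to −0.30 for RBM, −0.48 to −0.27 for kinase genes and −0.41 to −0.26 for all members. No paired analysis was possible because the columns carry no replicate numbers and the control is 1 column. Depth limits *HNRNPA1P10*, with 18 control reads.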
